A study of Homo sapiens with 9 samples.

Results

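S100 genes encode small calcium-binding proteins, and 10 of them (S100A2, S100A3, S100A4, S100A6, S100A10, S100A11, S100A13, S100A14, S100A16 and S100P) were followed here among the 58219 gene rows of 9 RNA sequencing samples. They were taken by gene symbol, but with earlier results of these data known. Of the 10, 8 passed the filter on low counts and were tested, and S100A3 and S100A6 did not. PLC/PRF/5, an established line from a human liver cancer, stably expressed YES, a kinase of the Src family. YES was of the wild-type form in 4 samples and of the T348I form in 5, and T348I alters the gatekeeper residue next to the site where dasatinib, a kinase inhibitor, binds. All 9 samples had received dasatinib at 100 nM, so every comparison is T348I against wild type under the drug, and no untreated sample was analysed here. The drug is spelled dasatinib in the titles of 6 samples (3 of each form) and Dasa in the other 3 (1 wild type, 2 T348I), and the spellings are used here to name a dasatinib set and a Dasa set. Whether a line was 1 clone or a pool is not given in the sources used here.

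S100 proteins form dimers that open a binding face when calcium binds to their EF hands and then attach to target proteins such as annexins or myosin. S100A10 is the exception that does not need calcium and sits with annexin A2 at the plasma membrane, where the complex binds plasminogen. Most S100 genes lie side by side on the long arm of chromosome 1, and several are known for higher levels in carcinomas than in the normal epithelium.

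In bulk RNA, fewer cells with a transcript and less transcript per cell cannot be told apart. T348I samples held more S100A11, S100A16 and S100P and slightly less S100A10 than wild-type samples, and these 4 genes made up nearly all S100 reads. S100A11 and S100A16 were about 2-fold higher in T348I samples, at a fold of 2.17 and 2.01. S100P was 1.52-fold higher. S100A10 fell by 0.22 on the log2 scale. The other 6 members were at low levels. Among them S100A13 rose and S100A14 fell, both with groups that overlapped. Their calls were lost under 1 and 5 of 17 alternative settings.

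The depth was 10381142 to 15799059 gene reads per sample. YES1, the gene of the introduced kinase, was at 341 to 368 CPM (the usual unit of reads relative to library size, scaled between samples) in wild-type samples and at 553 to 1032 CPM in T348I samples. A count per gene does not show which form of YES is made. The sets stood apart: transcripts of the mitochondrial genome took 7.38% to 9.44% of gene reads in the dasatinib set and 15.2% to 17% in the Dasa set, and the edgeR test found a set difference for 58.6% of tested genes. The 12 genes of the hepatocyte list summed to 6563 to 9666 CPM in wild-type and 5846 to 7607 CPM in T348I samples. Most of it was APOB, SERPINA1, FGB and TF. APOB stood at 5321 CPM in the wild-type Dasa sample, against 2413 to 2496 CPM in the other wild-type samples. Some genes were low, with wild-type means of 3.95 CPM for ALB, 0.226 CPM for TTR and 0.284 CPM for CYP3A4. Of the 10 tested hepatocyte genes 7 were called lower with T348I, where 21.8% of all tested genes were called lower and 20.7% higher. The folds differed between the sets. On the log2 scale FGB was at -0.05 in the dasatinib set and -0.61 in the Dasa set, and TF at -0.61 and -1.06. APOB (0.29 and -0.72) and SERPINA1 (0.12 and -0.49), not called over both sets, changed direction. The Dasa folds rest on 1 wild-type sample. The summed level of 6 biliary markers was 33.2 to 42.4 CPM in wild-type and 59.7 to 78.3 CPM in T348I samples, with 2 of 5 tested genes called higher and 1 lower. The part of the hepatocyte and biliary genes in the S100 results was not tested. Fibroblast markers (6 genes) summed to 3.70 to 8.94 CPM in wild-type and 4.82 to 10.4 CPM in T348I samples, with COL1A1, the 1 gene tested, called higher (log2 fold change 0.52). Endothelial markers (5 genes, STAB2 at 0 reads) summed to 1.37 to 3.56 CPM in wild-type and 1.81 to 3.94 CPM in T348I samples, and PECAM1, the 1 gene tested, did not pass (log2 fold change 0.13). The 8 leukocyte markers summed to 961 to 1258 CPM in wild-type and 805 to 1407 CPM in T348I samples, almost all of it LYZ (1155 CPM, wild-type mean). Of its 3 tested genes, CD79A, a B cell receptor gene, was called higher (log2 fold change 3.92, standard error 0.484, edgeR adjusted p = 2.33e-06), on 4 wild-type and 88 T348I reads, and LYZ and ITGAM did not pass. PTPRC, the pan-leukocyte marker, stood at 0 reads in wild-type samples and at a mean of 0.0303 CPM in T348I samples.

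Levels of different members were compared per kilobase of exons, since a longer transcript gives more reads. The length was that of all annotated exons of a gene merged, 1543 bases for S100A10 and 680 for S100A11. The transcripts present may be shorter, so the order of members depends on this choice. In CPM, without length, wild-type samples held 412 to 458 for S100A10 and 176 to 198 for S100A11. T348I samples held 366 to 383 and 370 to 463. In wild-type samples S100A10 and S100A11 were the highest, at 267 to 297 CPM per kilobase for S100A10 and 259 to 291 for S100A11, ranges that overlapped. S100A16 came next at 50.9 to 55.4 CPM per kilobase and S100P after it at 32.9 to 44.4, and these did not overlap each other. S100A13 stood at 3.95 to 5.44 CPM per kilobase. The last 5, S100A14, S100A4, S100A2, S100A6 and S100A3, lay between 0.0717 and 3.38 CPM per kilobase, and neighbours in this order overlapped. In T348I samples S100A11 was above S100A10 in every sample, at 545 to 681 against 237 to 248 CPM per kilobase.

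**Figure D1:**
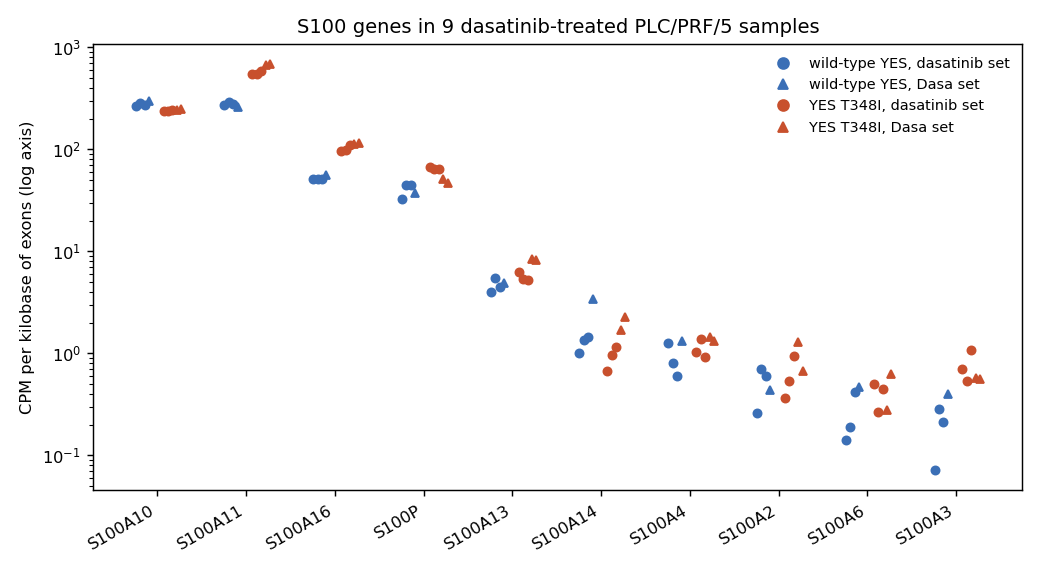
The vertical log axis gives CPM per kilobase of exons for each of the 10 S100 genes along the horizontal axis, with 1 point per sample, coloured by group and shaped by set. S100A10 and S100A11 overlap in wild-type samples, and S100A11 lies at 545 to 681 in T348I samples, above S100A10 at 237 to 248.

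The ratio of S100A11 to S100A10 within a sample, per kilobase, was 0.981 ± 0.0731 (SD, n = 4) in wild-type and 2.5 ± 0.243 (SD, n = 5) in T348I samples. This ratio depends in size on the lengths used, but its relative change between groups does not. It was 1.02, 1.03, 1.01 and 0.872 in the wild-type samples, the last in the Dasa set. In T348I samples it was 2.31, 2.28 and 2.39 in the dasatinib set and 2.79 and 2.74 in the Dasa set. S100A10 took between 55% and 57.7% of all reads of the 10 members in wild-type samples and between 33.5% and 36.7% in T348I samples, while S100A11 went from between 22.2% and 25% to between 36.9% and 41.1%. The 10 members together took 0.0768% to 0.0831% of gene reads in wild-type and 0.101% to 0.107% in T348I samples.

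The promoters of the 4 abundant members are printed because their transcripts moved in different directions, with the 2 listed starts of S100A16. Each window runs from 250 bases before to 50 bases after a RefSeq start (GRCh38.p14), and all 10 members had at least 1 window, 14 in all. Both strands were searched for TGANTCA (the AP-1 motif), GGAATG (the TEAD motif) and TTCNNNGAA (the STAT motif), and matches are in capitals. The windows of S100A11, S100A10 and S100P held none of these, and both windows of S100A16 held GGAATG.
S100A11, chr1:152036955-152037254, minus strand: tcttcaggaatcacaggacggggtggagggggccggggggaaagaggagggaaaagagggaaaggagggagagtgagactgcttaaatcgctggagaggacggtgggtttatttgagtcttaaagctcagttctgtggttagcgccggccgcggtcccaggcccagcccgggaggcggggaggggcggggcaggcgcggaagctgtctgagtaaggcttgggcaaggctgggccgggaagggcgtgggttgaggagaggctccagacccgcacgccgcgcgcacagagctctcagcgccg
S100A16, chr1:153613088-153613387, minus strand: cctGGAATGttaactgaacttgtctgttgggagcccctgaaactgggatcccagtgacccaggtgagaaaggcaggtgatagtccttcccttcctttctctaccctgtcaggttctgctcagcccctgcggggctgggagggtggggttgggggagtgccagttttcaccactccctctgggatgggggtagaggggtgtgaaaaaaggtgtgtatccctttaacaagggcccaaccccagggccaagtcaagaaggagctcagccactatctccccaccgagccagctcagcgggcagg
S100A16, chr1:153609306-153609605, minus strand: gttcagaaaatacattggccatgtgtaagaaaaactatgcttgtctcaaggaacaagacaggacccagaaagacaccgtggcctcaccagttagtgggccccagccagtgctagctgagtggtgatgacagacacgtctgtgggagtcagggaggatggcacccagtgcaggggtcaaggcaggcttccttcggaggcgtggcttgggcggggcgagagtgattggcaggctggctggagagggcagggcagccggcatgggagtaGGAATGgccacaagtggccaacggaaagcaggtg
S100P, chr4:6693628-6693927, plus strand: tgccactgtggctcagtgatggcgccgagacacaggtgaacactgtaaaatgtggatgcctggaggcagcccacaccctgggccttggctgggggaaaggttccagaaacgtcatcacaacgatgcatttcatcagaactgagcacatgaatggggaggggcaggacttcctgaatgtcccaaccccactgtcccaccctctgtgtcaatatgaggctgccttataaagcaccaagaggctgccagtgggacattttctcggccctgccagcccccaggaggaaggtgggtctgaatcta
S100A10, chr1:151993810-151994109, minus strand: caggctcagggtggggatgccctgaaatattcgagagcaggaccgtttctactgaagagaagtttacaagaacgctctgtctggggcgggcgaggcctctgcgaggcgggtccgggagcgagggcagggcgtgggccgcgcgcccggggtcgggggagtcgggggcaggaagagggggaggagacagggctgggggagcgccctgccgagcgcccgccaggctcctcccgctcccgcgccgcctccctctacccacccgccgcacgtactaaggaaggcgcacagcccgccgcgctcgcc

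In S100A16 the GGAATG match began 247 bases before the first start and 16 bases after the second. GGAATG stood in 2 of the 14 windows of the members and in 14.03% of the 35116 windows of all genes. TGANTCA stood in 2 of the 14, in S100A2 (52 bases before the start) and S100A3 (225 bases before), against 7.71% of all windows. TTCNNNGAA stood in 1, S100A3 (100 bases before the start), against 7.66%. A match only says that these letters are in the window.

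S100A11, also known as calgizzarin and a partner of annexin A1, had the largest fold of the 8 tested members. The gene (ENSG00000163191.5) lies on the minus strand of chromosome 1, from 152032506 to 152047907 in GRCh38. It stood at 185, 198 and 187 CPM in the wild-type dasatinib samples and 176 CPM in the wild-type Dasa sample. Of the T348I samples, those of the dasatinib set had 373, 370 and 398 CPM and those of the Dasa set 460 and 463 CPM. Every T348I sample was above every wild-type sample, and the T348I Dasa samples were the highest. The means were 187 ± 8.95 CPM (SD, n = 4) and 413 ± 45.5 CPM (SD, n = 5), and log2 fold change was 1.12 (standard error 0.0561, edgeR adjusted p = 5.77e-12). Of the tested genes, 2.06% had a higher log2 fold change. The pseudogenes S100A11P2 and S100A11P1 held 15 and 8 reads over all samples, against 37085 reads of S100A11.

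S100A16, a broadly expressed member of less clear function, doubled. The gene (ENSG00000188643.10, chromosome 1, 153606886 to 153613145, minus strand) stood at 87.4, 86.7 and 86.6 CPM in the wild-type dasatinib samples and 94.2 CPM in the wild-type Dasa sample. Of the T348I samples, those of the dasatinib set had 163, 166 and 188 CPM and those of the Dasa set 193 and 198 CPM. The groups did not overlap, and the lowest T348I sample was well above the highest wild-type sample. Wild-type samples averaged 88.7 ± 3.66 CPM (SD, n = 4) and T348I samples 181 ± 15.9 CPM (SD, n = 5), and the test gave a log2 fold change of 1.01 (standard error 0.0435, edgeR adjusted p = 5.95e-13).

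S100P, first found in placenta and a partner of ezrin, is the member that lies outside chromosome 1, on chromosome 4 (ENSG00000163993.6, 6693069 to 6697170, plus strand). It stood at 42.1, 56.6 and 56.9 CPM in the wild-type dasatinib samples and 48.1 CPM in the wild-type Dasa sample. Of the T348I samples, those of the dasatinib set had 84.9, 82.5 and 82.9 CPM and those of the Dasa set 65.0 and 60.4 CPM. The groups did not overlap, but here the T348I Dasa samples were the lowest of their group, close to the highest wild-type samples. Wild-type samples averaged 50.9 ± 7.15 CPM (SD, n = 4) and T348I samples 75.1 ± 11.5 CPM (SD, n = 5), and the test gave a log2 fold change of 0.60 (standard error 0.0734, edgeR adjusted p = 1.98e-06).

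S100A10, the annexin A2 partner (ENSG00000197747.8, chromosome 1, 151982915 to 151994390, minus strand), was the abundant member that fell. Wild-type samples held 412, 437 and 422 CPM in the dasatinib set and 458 CPM in the Dasa set. Of the T348I samples, those of the dasatinib set had 366, 369 and 377 CPM and those of the Dasa set 374 and 383 CPM. Every T348I sample was below every wild-type sample. The fall was small: means of 432 ± 20.4 CPM in wild type (SD, n = 4) and 374 ± 6.53 CPM with T348I (SD, n = 5) differed by -0.22 in log2 (standard error 0.0356, edgeR adjusted p = 5.84e-05).

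**Figure D2:**
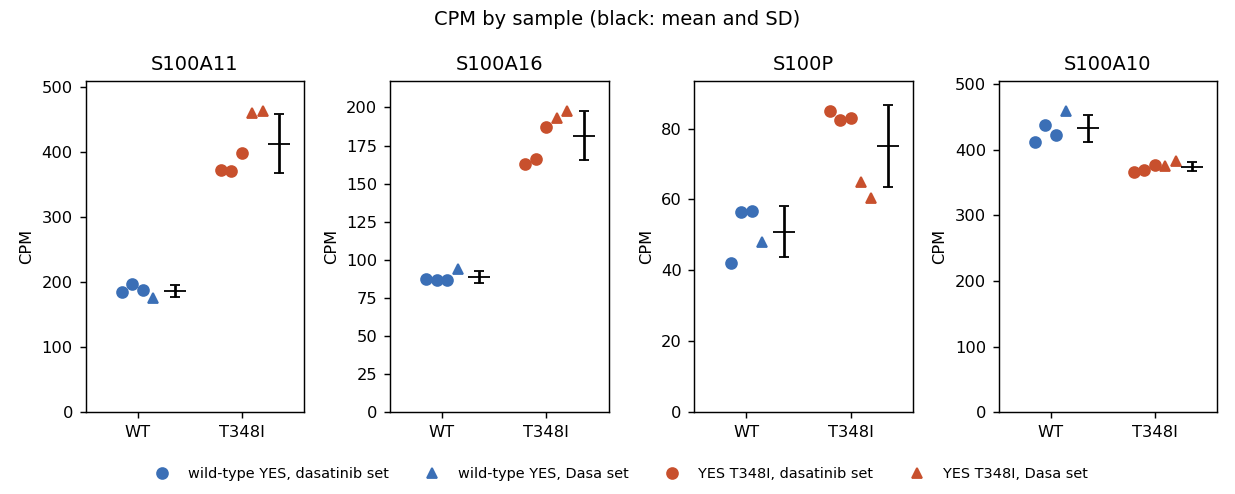
Each panel gives CPM on a vertical axis from 0 for 1 of the 4 abundant members, with 1 point per sample, shaped by set, and the mean and SD of each group in black. T348I points lie above all wild-type points for S100A11 (370 to 463 against 176 to 198), S100A16 and S100P, and below them for S100A10 (366 to 383 against 412 to 458).

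S100A13, known for its part in the release of FGF1 without a signal peptide, rose at a low level. The gene (ENSG00000189171.14, chromosome 1, 153618787 to 153631360, minus strand) stood at 8.76, 12.1 and 9.81 CPM in the wild-type dasatinib samples and 10.8 CPM in the Dasa sample. Of the T348I samples, those of the dasatinib set had 13.9, 11.8 and 11.6 CPM and those of the Dasa set 18.7 and 18.0 CPM, so the groups overlapped. Its log2 fold change was 0.45 (standard error 0.107, edgeR adjusted p = 0.00199). Without the set term S100A13 was not called (0.52). Its exons share 24.2% of their bases with a processed transcript on the same strand, AL162258.1, and 10.6% with S100A1 on the opposite strand. Reads in the part shared with AL162258.1 cannot be assigned to either gene. Reads counted as ambiguous between genes were among the rows left out.

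S100A14, a member of epithelial cells (ENSG00000189334.8, chromosome 1, 153614255 to 153616986, minus strand), fell in the fit of all 9 samples, on 237 reads in all. It stood at 1.30, 1.74 and 1.83 CPM in the wild-type dasatinib samples and 4.32 CPM in the wild-type Dasa sample. Of the T348I samples, those of the dasatinib set had 0.866, 1.22 and 1.46 CPM and those of the Dasa set 2.18 and 2.88 CPM. The groups overlapped, and in both groups the Dasa samples were the highest. Its log2 fold change was -0.60 (standard error 0.202, edgeR adjusted p = 0.0214). This call was lost with DESeq2 (-0.57), without the set term (-0.40), in the dasatinib set alone (-0.42), without wild-type Dasa replicate 1 (-0.42) and without T348I Dasa replicate 1 (-0.49), and its adjusted p ran from 0.0127 to 0.569 over the alternatives.

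S100A16, S100A14 and S100A13 follow each other on the minus strand of chromosome 1, with 1109 bases between the first pair and 1800 between the second. Their log2 fold changes were 1.01, -0.60 and 0.45.

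The remaining 4 members were close to the limit of detection at this depth. S100A4, also called metastasin and a partner of nonmuscle myosin (ENSG00000196154.11, chromosome 1, 153543613 to 153550136), had 9 to 19 reads per wild-type sample and 11 to 22 per T348I sample. Its log2 fold change of 0.24 did not pass the test (edgeR adjusted p = 0.478), and the pooled ratio of T348I to wild type was 1.25 with a 95% exact interval of 0.878 to 1.79. S100A2, a nuclear member known from keratinocytes (ENSG00000196754.10, 153561108 to 153567890), had 6 to 14 reads per wild-type and 6 to 30 per T348I sample. Its log2 fold change of 0.58 did not pass either (edgeR adjusted p = 0.198), at a pooled ratio of 1.6 (1.08 to 2.38). These intervals cover counting error alone and take no account of the spread between samples. PCR copies were not marked, so the intervals may be too narrow even for counting error.

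S100A3, known from the hair cuticle (ENSG00000188015.9, chromosome 1, 153547329 to 153549372, within the span of S100A4 but sharing no exon base with it), was under the filter. It had 1, 3 and 3 reads in the wild-type dasatinib samples and 5 in the Dasa sample, against 7, 8 and 12 in the T348I dasatinib samples and 8 and 7 in the Dasa samples. In CPM no T348I sample was as low as any wild-type sample (0.514 to 1.03 against 0.0684 to 0.379). The exact two-sided permutation test gave p = 0.0159, the smallest that 126 splits allow, as 1 of 2 such tests, chosen after the values were seen. The pooled ratio was 2.86 (95% exact interval 1.48 to 5.97). With no filter the edgeR test called it (log2 fold change 1.49, standard error 0.461, adjusted p = 0.00841). That fit gave far smaller p-values for abundant members than the filtered fit. For S100A11 the edgeR adjusted p was 1.72e-155 with no filter and 5.77e-12 with it. The call of S100A3 is therefore not on the same footing as the calls of the filtered fit.

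S100A6, or calcyclin, is abundant in many cultured cells but had 2 to 6 reads per wild-type and 4 to 8 per T348I sample here (ENSG00000197956.9, chromosome 1, 153534599 to 153536244). The pooled ratio was 1.33 (95% exact interval 0.686 to 2.65). The exact two-sided permutation test gave p = 0.286, and a difference was not detectable at this depth.

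Among the 8 tested members 4 were called higher and 2 lower by the edgeR test (adjusted p under 0.05), against 42.5% of all 14617 tested genes called, 20.7% higher and 21.8% lower. A called rise of at least 1.5-fold was found for 3 members, S100A11, S100A16 and S100P, and for 4.84% of all tested genes. This cut was not among the planned thresholds, and S100P passed it narrowly, at 1.52-fold. The median log2 fold change of the 8 was 0.51, and that of all tested genes -0.0077. CPM ranges of the groups did not overlap for 3 tested members with T348I above and 1 with T348I below, against 10.2% and 9.41% of all tested genes, 19.6% in all. In the dasatinib set alone 4 were called higher and 1 lower (S100A10), where 35.6% of genes were called, 18.5% higher and 17.1% lower. Upper quartile and RLE scaling left the direction of all 8 tested members as it was.

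**Figure D3:**
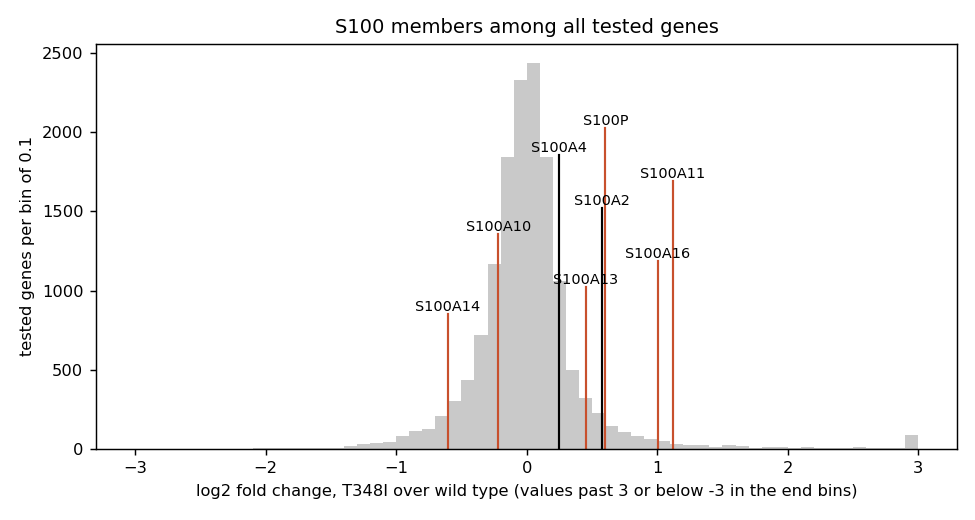
The horizontal axis gives the log2 fold change of T348I over wild type, and the grey bars the number of the 14617 tested genes per bin of 0.1, with values past 3 in the end bins. Lines mark the 8 tested S100 members, in orange where called and in black where not, from S100A14 at -0.60 to S100A11 at 1.12.

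The fold of S100A11 differed between the sets. It was 1.0 on the log2 scale in the dasatinib set and 1.39 in the Dasa set, a difference of 0.39 with a standard error of 0.0681 (edgeR interaction test, adjusted p = 0.000164). This was the 1 call among the 8 members, against 7.33% of all tested genes. The test takes the single wild-type Dasa sample to vary like the others. YES1 showed a larger difference in the same direction, with a log2 fold of 0.73 in the dasatinib set and 1.45 in the Dasa set (edgeR interaction test, adjusted p = 2.31e-09), and its part in the result was not tested.

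The folds of the other members in the 2 sets were not called as different. S100A16 was at 0.99 and 1.05 in the dasatinib and Dasa sets. S100P had a log2 fold of 0.69 in the dasatinib set and 0.39 in the Dasa set (edgeR interaction adjusted p = 0.128), and the difference of -0.31 became -0.39 and was called without wild-type dasatinib replicate 3. S100A13 had 0.29 and 0.77 (edgeR interaction adjusted p = 0.119), and the difference of 0.48 became 0.58 and was called without wild-type dasatinib replicate 1. S100A10 was lower in T348I samples of both sets, at -0.19 and -0.28. With group held fixed, S100A14 was 1.24 higher on the log2 scale in the Dasa set than in the dasatinib set (edgeR adjusted p = 3.26e-05) and S100P stood at -0.30 (edgeR adjusted p = 0.00229).

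**Figure D4:**
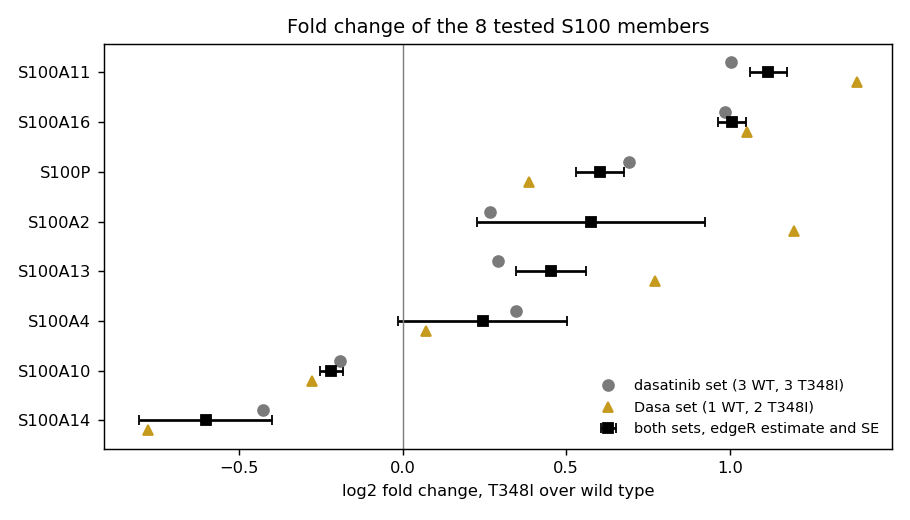
The horizontal axis gives the log2 fold change of T348I over wild type for the 8 tested members, with the edgeR estimate and its standard error in black and the fold within each set in grey and yellow. S100A11 lies at 1.0 in the dasatinib set and 1.39 in the Dasa set, and S100A10 lies below 0 in both.

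Of 11 further S100 genes, 1 was tested. S100A9, the calgranulin B subunit of calprotectin and best known from neutrophils and stressed epithelium, rose (log2 fold change 4.43, standard error 0.138, edgeR adjusted p = 4.27e-15). It had 6, 5 and 10 reads in the wild-type dasatinib samples and 26 in the Dasa sample, against 148, 187 and 158 in the T348I dasatinib samples and 527 and 513 in the Dasa samples. Its usual dimer partner S100A8 had 0 reads in the 4 wild-type samples, where a count of 0 allows up to 3 reads over the group, and 10 reads in the 5 T348I samples. S100B had 0 reads in wild-type samples and 1 or 2 in each T348I sample. S100A7, S100A7L2, S100A12, S100G and S100Z had 0 reads in all 9 samples.

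Genes of proteins that S100 proteins are known to bind, and other genes of their pathways, formed a list of 22, of which 18 were tested. The edgeR test called 11 higher and 3 lower, where 20.7% and 21.8% of all tested genes were called, with a median log2 fold change of 0.20. Without the set term 3 were called higher (ANXA1, EZR and PLAT) and 1 lower. ANXA2, whose product holds S100A10 at the membrane, rose (log2 fold change 0.27, standard error 0.0436, edgeR adjusted p = 5.80e-05), while S100A10 itself fell. The mean level of ANXA2 was 743 ± 75.4 CPM in wild type (SD, n = 4) and 876 ± 37.2 CPM with T348I (SD, n = 5). ANXA1, the annexin that S100A11 binds, rose (log2 fold change 0.18, standard error 0.0344, edgeR adjusted p = 0.000384). ANXA5 rose by 0.41 and ANXA11 by 0.11, the latter not called without wild-type Dasa replicate 1 (0.08), with no filter (0.11), without the set term (0.12), in the dasatinib set alone (0.08) or with the replicate block (0.10). ANXA6 had a log2 fold of 0.25 that did not pass and was -0.07 without wild-type Dasa replicate 1.

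EZR, the gene of the S100P partner ezrin that links actin to the membrane, rose (log2 fold change 0.71, standard error 0.0622, edgeR adjusted p = 2.25e-08). Its means were 336 ± 32.2 CPM in wild type (SD, n = 4) and 551 ± 41.7 CPM with T348I (SD, n = 5). The scaffold gene IQGAP1 rose by 0.20, MYH9, nonmuscle myosin heavy chain, by 0.20, the liprin gene PPFIBP1 by 0.37 and AHNAK, a large scaffold at the membrane, by 0.27. PLAT, tissue plasminogen activator, rose by 4.47, from 13 reads in wild-type samples to 373 in T348I samples. MDM2, a ubiquitin ligase gene, rose by 0.13. SYT1, a vesicle calcium sensor, fell by 0.61.

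SRI, sorcin, another EF-hand protein, fell by 0.13, but the call was not kept by DESeq2 (-0.13), without the set term (-0.16), in the dasatinib set alone (-0.08) or with the replicate block (-0.13). Of the 9 samples, leaving out any 1 of 7 ended it as well. In the dasatinib set these were wild-type replicates 2 (-0.11) and 3 (-0.13) and T348I replicates 1 (-0.12) and 3 (-0.14), and in the Dasa set all 3 samples, wild-type replicate 1 (-0.08) and T348I replicates 1 (-0.12) and 2 (-0.12). CACYBP (0.09), SUGT1 (-0.05) and AGER (0.28), a receptor of secreted S100 proteins, did not pass, and CACYBP was called when wild-type replicate 2 (0.11) or T348I replicate 1 (0.11) of the dasatinib set was left out. FGF1 had 0 reads in wild-type samples and 2 to 4 in each T348I sample.

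**Figure D5:**
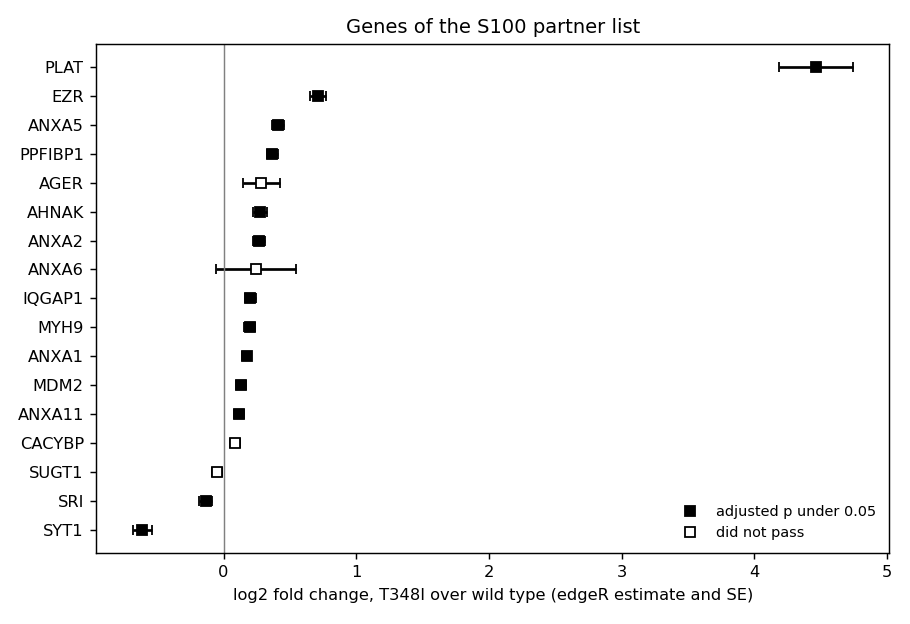
The horizontal axis gives the log2 fold change of T348I over wild type with its standard error for the tested genes of the partner list reported here, filled where the edgeR adjusted p was under 0.05. PLAT stands apart at 4.47, EZR follows at 0.71, and SYT1 lies lowest at -0.61.

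Within 200 kb of a member on chromosome 1 lay 12 tested genes outside the S100 family. The edgeR test called 3 higher and 0 lower, where 20.7% of all tested genes were called higher and 21.8% lower. The median log2 fold change of the 12 was 0.05. Neighbours of S100P on chromosome 4 were not looked at. The share of neighbours called higher was close to that of all genes. At an unadjusted p under 0.05 edgeR found 1 lower (NPR1), and DESeq2 called 0 lower after adjustment. TCHH, the hair follicle protein trichohyalin, rose (log2 fold change 3.65, standard error 0.339, edgeR adjusted p = 5.15e-08), from 9 reads in the 4 wild-type samples to 184 in the 5 T348I samples. ILF2 and CHTOP, genes of RNA-binding proteins, rose by 0.16 each. Without the set term only TCHH remained among the calls, and without T348I dasatinib replicate 2 the edgeR test called 1 neighbour lower.

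The genes most like each of the 3 members with the largest fold, by the root mean square difference of centred log2 CPM over the 9 samples, were found among 14575 candidates. For S100A11 they were DUSP4, a MAP kinase phosphatase gene (0.0788), the anthrax toxin receptor gene ANTXR2 (0.0815) and the sulfide oxidation gene SQOR (0.0837), where the median candidate lay at 0.614. For S100A16 they were IER5L (0.0430), the caveola gene CAVIN1 (0.0864) and the scramblase gene PLSCR1 (0.0868). For S100A14 the nearest lay farther off, with the syndecan gene SDC2 at 0.147, the channel-interacting gene KCNIP2 at 0.151 and the alkaline phosphatase gene ALPL at 0.152.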

How the data were processed

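Libraries were stranded and made from polyA RNA after TRIzol extraction, per the labels' protocols. Each deposited table lists unnormalized gene counts. The submitters' processing notes name CASAVA 1.8.2, Trimmomatic 0.35, STAR 2.5.1b and GRCh38, and the release of the gene models is not given in the sources used here. Column 4, the sense strand, was used. Rows that name no gene held 22.2% to 29.8% of reads and were left out. Depth was 10381142 to 15799059 gene reads per sample, and no label tells whether the replicates were grown separately, so the p-values reflect the spread of these 9 samples, which may be technical. Samples alike in group and set differed beyond sampling noise (chi-square of 1.49 to 3.09 per gene).

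The test was that of edgeR 4.0.16 in R 4.3.3 (filterByExpr, TMM, quasi-likelihood F-test, set and group as terms, Benjamini-Hochberg adjustment over all genes tested, threshold 0.05), and standard errors come from the fold and the F statistic. DESeq2 1.42.0, other scaling, no filter, no set term, 1 set, a replicate block, unstranded counts and leaving out each sample were alternatives. Exon lengths and positions come from GENCODE release 29, and the gene versions of all 10 members matched. Promoters come from RefSeq on GRCh38.p14. The fit was tried on simulated data that held no set difference, so that trial does not cover the difference between the sets.

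The members and lists were chosen with earlier results of these data known. Named were YES1, all members, tested genes of the S100 and partner lists (1 partner gene, kept in the counts, is not reported here), up to 3 called chromosome 1 neighbours in each direction, and 3 genes of most similar pattern (log2 of CPM plus 0.5) for the 3 members of largest fold. Other genes (marker lists, NPR1, FGF1, S100A8 and S100 genes under the filter) were named after their values were seen.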

Additional observations from a re-analysis of the deposited data

Results flagged for a closer look

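In the following genes the wild-type Dasa sample, the 1 wild-type sample of its set, lay far from the other wild-type samples. In all, 84 groups of samples were looked at over 42 genes. Chance alone marks about 1 in 20 where the samples of a group are alike. Both groups here mix the sets, and a set difference was found for 58.6% of tested genes, so that rate does not apply. A sample was marked by its gap to the nearest sample relative to the range of the group, not by the size of the difference. Among members this held for S100A16, at 94.2 CPM against 86.6 to 87.4 CPM in the other wild-type samples. S100A9 was marked as well, at 1.97 CPM against 0.411 to 0.677. S100A14 was not marked, at 4.32 CPM against 1.30 to 1.83, but its call was lost without the wild-type Dasa sample. The sample was high for AHNAK (454 against 177 to 187 CPM), MYH9 (580 against 434 to 435), PPFIBP1 (80.4 against 51.8 to 56.0), CHTOP (95 against 66.8 to 70.4) and ALPL (28.3 against 9.92 to 10.8). It was low for ANXA2 (631 against 770 to 797 CPM), ANXA5 (286 against 395 to 411), EZR (288 against 346 to 354), ILF2 (183 against 243 to 246) and DUSP4 (65.3 against 78.0 to 80.0). In all 12 genes the sample that stood apart was this one. Of these, DUSP4 and ALPL had been chosen for patterns like those of S100A11 and S100A14 over the same samples.

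In the edgeR interaction test the log2 fold of T348I over wild type differed between the sets for 8 of the 40 genes looked at. Of all tested genes 7.33% were called. DUSP4 and ANTXR2, both among the 8, were chosen for a pattern like that of S100A11, itself called, over these same samples. The 8 of 40 is therefore not to be read against that share. The difference, Dasa set minus dasatinib set, was 0.39 for S100A11 (adjusted p = 0.000164), 0.71 for YES1 (adjusted p = 2.31e-09), 0.48 for EZR (adjusted p = 8.64e-07) and 0.66 for DUSP4 (adjusted p = 7.57e-07). It was 0.60 for ANTXR2 (adjusted p = 0.00845), 0.26 for ANXA5 (adjusted p = 0.00615), 0.21 for ANXA2 (adjusted p = 0.0322) and -0.47 for SYT1 (adjusted p = 0.00584), all by edgeR. For ANXA2, ANXA5, EZR and DUSP4 the wild-type Dasa sample was also the one that stood apart.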

How the results depend on the processing

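S100A10, S100A11, S100A16 and S100P kept their direction and their call under all 17 alternatives, with log2 folds of -0.24 to -0.19, 1.01 to 1.16, 0.97 to 1.04 and 0.50 to 0.70. S100A2 and S100A4 passed under none of the 17. Members called lower went from 2 to 1 with DESeq2, without the set term and in the dasatinib set alone, S100A14 being the one lost, and ranged from 1 to 2 over the samples left out in turn. Members called higher went from 4 to 5 with no filter, S100A3 being added, and to 3 without the set term, S100A13 being lost. The fit with no filter gave far smaller p-values for S100A11 and S100A16, so the added call is not on the same footing. Without the set term 2350 genes were called, against 6212, with 3 partner genes higher, 1 lower and 1 neighbour higher. Leaving out samples in turn, neighbours called lower ranged from 0 to 1, and members with a fold that differed between sets from 1 to 2. ANXA6, never called, turned to -0.0708 within the dasatinib set and ranged from -0.0703 (without wild-type Dasa replicate 1) to 0.660 over the samples left out. Same-numbered samples did not deviate together (correlations of 0.0166, -0.0455 and 0.0255 in the dasatinib set). With so few samples this cannot show whether the numbers pair samples, and the Dasa set was not checked. With the replicate block 5372 genes were called, and 4 members higher and 2 lower. Other scaling moved the median log2 fold of all genes from -0.0077 to -0.0200 and -0.0040. Depth limits the members with no more than 30 reads in any sample (S100A2, S100A3, S100A4 and S100A6), for which only large differences could be seen. The causes of the lost calls were not tested.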
